A study of Mus musculus with 6 samples.

Results

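MHC class I presentation was followed through 10 genes, chosen by name: the classical heavy chains H2-K1 and H2-D1, the light chain B2m, the transporter and loading genes Tap1, Tap2 and Tapbp, the immunoproteasome subunits Psmb8, Psmb9 and Psmb10, and the transactivator Nlrc5. They were 10 of the 55421 genes counted, and all 10 passed the filter on low counts. The cells were spleen monocytes of adult C57BL/6 mice, left untouched while other splenocytes were removed with antibodies and magnetic beads, and each library came from 1 mouse. There were 3 libraries from IL-4Rα+/+ mice and 3 from IL-4Rα-/- littermates. IL-4Rα is the receptor chain shared by IL-4 and IL-13, and IL-4Rα-/- mice lack it in every cell of the body, not in monocytes alone. The labels name no treatment and give neither the age nor the sex of an animal. The comparison asks what loss of the receptor does to transcripts of the class I pathway at steady state.

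Class I molecules show fragments of a cell's own proteins to CD8+ T cells. Proteins are cut by the proteasome, the fragments are pumped into the endoplasmic reticulum by the Tap1-Tap2 transporter, and tapasin, the product of Tapbp, bridges the transporter to empty class I molecules made of a heavy chain and β2-microglobulin. Interferons raise most of these genes through factors that include IRF1 and NLRC5, and in the immunoproteasome Psmb8, Psmb9 and Psmb10 take the places of the constitutive subunits Psmb5, Psmb6 and Psmb7. Monocytes carry the pathway at rest, in both the Ly6C-high subset and the Ly6C-low subset that patrols vessels.

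The libraries held 26807281 to 29033297 counts on genes, and the lowest count of any of the 10 genes in a library was 3154, which carries a counting error of 1.78%. Counting error was therefore small beside the differences between libraries. Il4ra, the targeted gene, held 3903, 3550 and 4686 counts in IL-4Rα+/+ replicates 1 to 3 and 781, 2268 and 940 in IL-4Rα-/- replicates 1 to 3. The groups were apart, but IL-4Rα-/- replicate 2 kept more Il4ra reads than the other knockout libraries, and which bases the deletion removes was not examined here. Xist, the RNA of the inactive X chromosome of female cells, had 15739 counts in IL-4Rα+/+ replicate 1 and 13512 in IL-4Rα-/- replicate 3, against 1 to 103 in the other 4 libraries, so each genotype held 1 library rich in it.

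No gene of the class I pathway differed between genotypes past the adjusted threshold of 0.15 in edgeR's quasi-likelihood test. Across all 13849 genes tested the same held, with 0 called (0%) and a smallest Benjamini-Hochberg adjusted p of 0.618. Il4ra, the targeted gene, was among those edgeR did not call, with a log2 fold change of -1.67 and an adjusted p of 0.618. The edgeR test at this threshold thus missed the knocked-out gene itself. DESeq2 called 80 of 14003 genes (0.571%) and 0 of the 10, and gave Il4ra an adjusted p of 0.0111. At an unadjusted p under 0.05, edgeR placed 515 genes higher (3.72%) and 605 lower (4.37%) in IL-4Rα-/- monocytes. Of the 10 class I genes, 0 were among the higher and 1, Nlrc5, was among the lower. Their log2 fold changes, IL-4Rα-/- against IL-4Rα+/+, ran from -0.32 to 0.07, with 8 below 0 and 2 above it. The median was -0.10, beside 0.01 for all genes tested, and the median size without sign was 0.10, beside 0.15 for all genes.

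**Figure D1:**
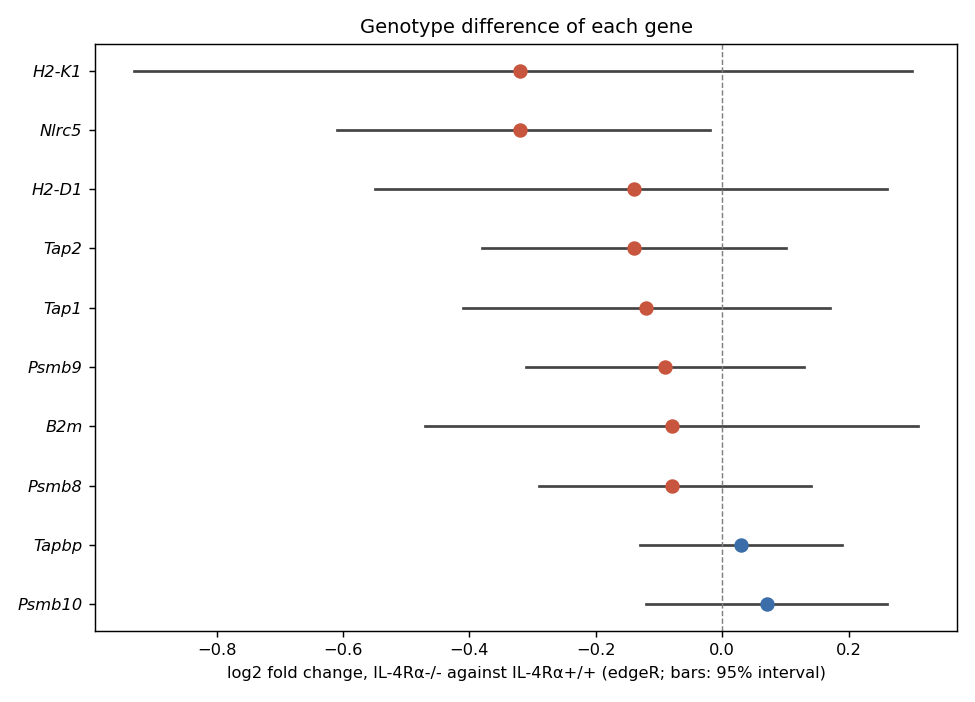
The log2 fold change of each of the 10 genes is plotted on the x axis, IL-4Rα-/- against IL-4Rα+/+, with bars for edgeR's 95% interval; the colour of a point marks its sign. The interval of Nlrc5 ends at -0.02, and the intervals of the other 9 genes include 0.

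Levels spanned a wide range when set per kilobase of transcript, in CPM per kb, where CPM are counts scaled to a library of 1e+06 counts. B2m stood highest at 3039, followed by H2-D1 at 1790 and H2-K1 at 1516. Psmb8 came next at 205, then Tapbp at 159, Psmb10 at 116, Tap1 at 96.5, Psmb9 at 95.4, Tap2 at 46.8 and Nlrc5 at 22.3. The ranges over the 6 libraries overlapped between 2 pairs of neighbours in that order, H2-D1 with H2-K1 and Tap1 with Psmb9. The other neighbours were apart in all 6 libraries.

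**Figure D2:**
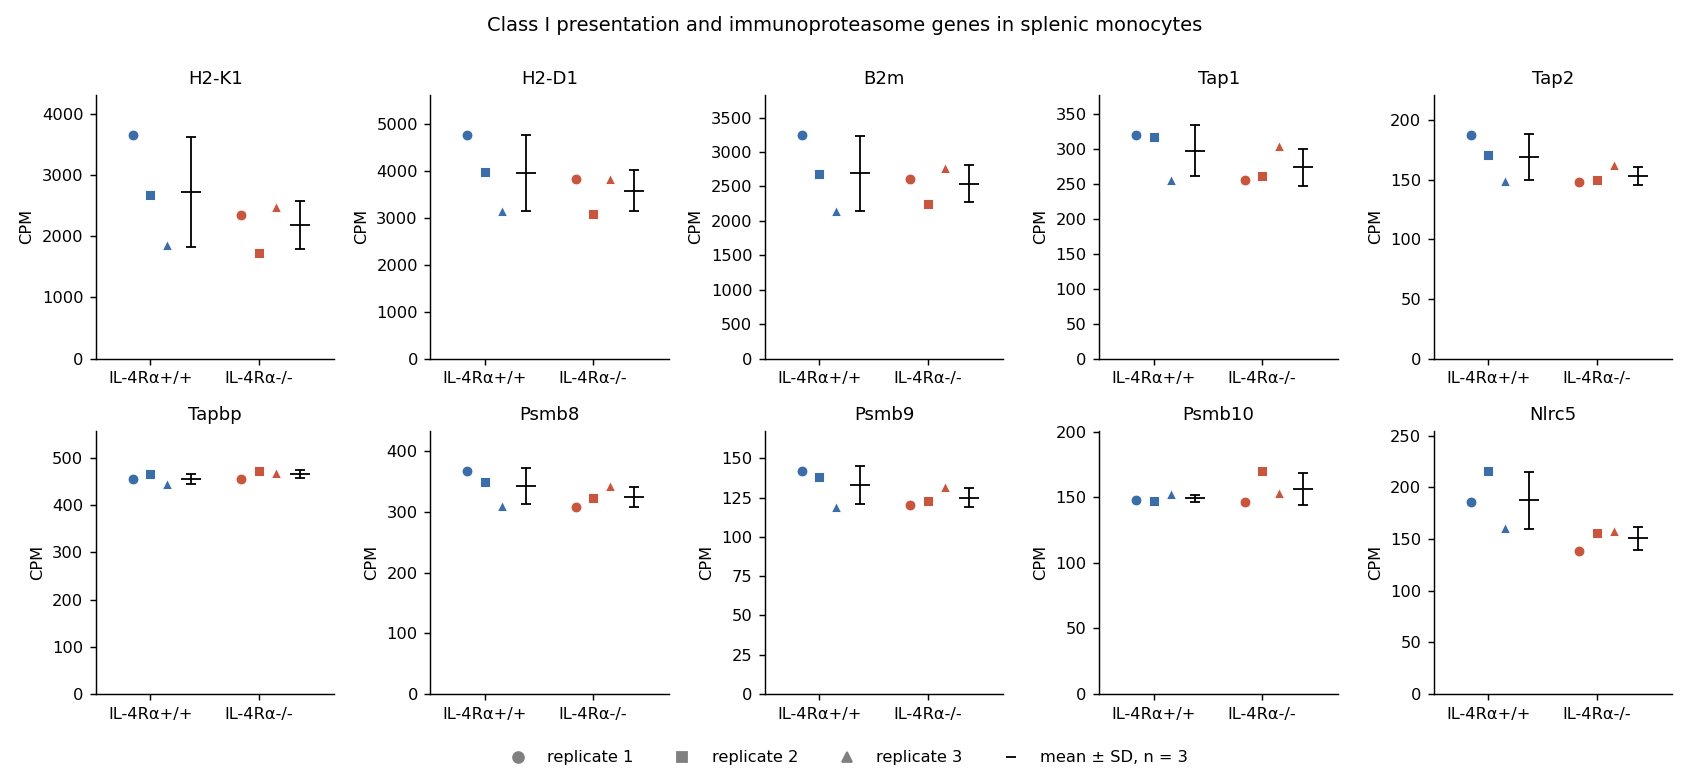
Each panel plots the CPM of 1 gene on a linear y axis from 0, with a point per library, the symbol giving the replicate number, and the mean with its SD beside each genotype (n = 3). Only in the Nlrc5 panel do all 3 IL-4Rα-/- points, 138 to 158 CPM, lie under all 3 IL-4Rα+/+ points, 161 to 216 CPM.

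The heavy chains and their light chain were the most abundant of the 10, and H2-K1 was the most uneven between mice. H2-K1, on chromosome 17 at 33996017 to 34000347 on the minus strand (GRCm38), measured 3650, 2668 and 1850 CPM in IL-4Rα+/+ replicates 1 to 3 and 2347, 1733 and 2476 CPM in IL-4Rα-/- replicates 1 to 3. All 3 knockout values lay inside the spread of the wild types or just under it. The means were 2723 ± 901 and 2185 ± 397 CPM (SD, n = 3 each), with a log2 fold change of -0.32 (SE 0.26, adjusted p = 0.726 by edgeR). H2-D1, on the plus strand of the same chromosome at 35262730 to 35267499, measured 4748, 3967 and 3139 CPM in IL-4Rα+/+ and 3830, 3072 and 3820 CPM in IL-4Rα-/-. Its groups overlapped, with a log2 fold change of -0.14 (SE 0.17, adjusted p = 0.791 by edgeR). B2m, on chromosome 2 at 122147686 to 122153083, encodes the light chain that pairs with class I heavy chains. It measured 3239, 2679 and 2149 CPM in IL-4Rα+/+ and 2603, 2241 and 2772 CPM in IL-4Rα-/-, a log2 fold change of -0.08 (SE 0.16, adjusted p = 0.872 by edgeR). Without IL-4Rα+/+ replicate 1, the highest library of all 3 genes, the log2 fold changes of H2-D1 and B2m were 0.01 and 0.07 and that of H2-K1 was -0.05. The ratio of H2-K1 to H2-D1 within a library was 0.769, 0.673 and 0.589 in IL-4Rα+/+ and 0.613, 0.564 and 0.648 in IL-4Rα-/-. These ratios overlapped (two-sided exact permutation test, p = 0.400, where 0.1 is the smallest p that 3 against 3 can give).

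The upstream stretches of these 3 genes are shown because they share matches to 3 of the motifs and because H2-K1 and H2-D1 are near copies of each other there. RefSeq windows of 250 bases before to 50 after the start (GRCm38.p6) were matched for 8 of the 10 genes, all but Tap2 and Nlrc5. Capitals mark matches, on either strand, to AANNGAAA (bound by interferon regulatory factors), GGGNNTTCC (NF-κB), TGACG (an X2 box or CRE core) and ATTGG (Y box), and no match overlaps another. The H2-K1 stretch is chr17:34000353-34000464 on the minus strand, the H2-D1 stretch chr17:35262917-35263051 on the plus strand, and the B2m stretch chr2:122147544-122147644 on the plus strand, each written 5′ to 3′.
H2-K1: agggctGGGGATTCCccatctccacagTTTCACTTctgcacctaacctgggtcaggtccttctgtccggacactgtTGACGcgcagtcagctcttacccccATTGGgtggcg
H2-D1: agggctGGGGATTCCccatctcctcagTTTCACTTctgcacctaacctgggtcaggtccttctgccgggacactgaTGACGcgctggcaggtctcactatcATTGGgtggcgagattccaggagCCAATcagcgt
B2m: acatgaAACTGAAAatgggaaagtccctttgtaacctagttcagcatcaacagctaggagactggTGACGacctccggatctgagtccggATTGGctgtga
Over 100 aligned bases starting at the first letter of the NF-κB match, H2-K1 and H2-D1 were identical at 89. AANNGAAA was present in H2-K1, H2-D1 and B2m, that is in 3 of 8 windows, and in 23.9% of all 32841 windows. GGGNNTTCC was in 2 of 8, the heavy chains, and in 5.82% of all. TGACG was in 5 of 8 against 20.8%, ATTGG in 6 of 8 against 37.4%, and the STAT motif TTCNNNGAA in 1 of 8, Psmb8, against 8.3%. The Tap1 and Psmb9 windows overlap and hold the same TGACG and ATTGG sites, each counted for both genes. With H2-K1 and H2-D1 near copies as well, the 8 windows are not independent, and the shares cannot be compared as if they were. These matches describe letters in a window and say nothing of binding.

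Of the genes that supply and load peptides, Tap1 and Tap2 had part of the library order of the heavy chains and Tapbp was nearly level. Tap1, at 34187553 to 34197225 on chromosome 17, measured 319, 317 and 255 CPM in IL-4Rα+/+ and 255, 261 and 304 CPM in IL-4Rα-/-. Tap2, the other chain of the transporter, at 34203527 to 34216321, measured 187, 171 and 149 CPM in IL-4Rα+/+ and 148, 150 and 162 CPM in IL-4Rα-/-. In each gene the IL-4Rα+/+ replicate 3 library sat with the knockouts and the groups overlapped. Their log2 fold changes were -0.12 (SE 0.12, adjusted p = 0.766 by edgeR) and -0.14 (SE 0.10, adjusted p = 0.695). The ratio of Tap1 to Tap2 counts kept to 1.71 to 1.85 in IL-4Rα+/+ and 1.73 to 1.88 in IL-4Rα-/-, with an exact permutation p of 0.50. Tapbp measured 455, 467 and 446 CPM in IL-4Rα+/+ and 456, 473 and 468 CPM in IL-4Rα-/-. It was the steadiest of the 10, its highest library 1.06 times its lowest, and its log2 fold change was 0.03 with a 95% interval of -0.13 to 0.19. Of its 75-base stretches 17.5% also occur in another annotated transcript, most of them in the antisense gene Gm19412, so reads there could have been dropped or shared.

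Tap1 and Psmb9 sit head to head and share the DNA between them, which is shown because it is the promoter of both. The stretch is chr17:34187331-34187555 (GRCm38.p6, 225 bases), written on the plus strand as read toward Tap1, with capitals for the Y box and TGACG matches.
Tap1 and Psmb9: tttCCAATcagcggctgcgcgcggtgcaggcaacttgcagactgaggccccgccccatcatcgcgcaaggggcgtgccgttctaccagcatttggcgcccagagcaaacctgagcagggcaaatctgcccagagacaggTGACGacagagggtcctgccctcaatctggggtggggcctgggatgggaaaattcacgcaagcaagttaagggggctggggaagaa
The TGACG match lies 86 to 82 bases before the Tap1 start and 144 to 140 bases before the Psmb9 start. In the libraries the ratio of Tap1 to Psmb9 counts was 2.14 to 2.29 in IL-4Rα+/+ and 2.12 to 2.31 in IL-4Rα-/-, overlapping ranges with an exact permutation p of 0.600 and a difference of -0.03 on the log2 scale. Annotated Gencode transcripts of the pair overlap over 212 exon bases on opposite strands, and which strand column the deposited counts came from is not given in the sources used here, so reads in that overlap are uncertain.

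The immunoproteasome subunits differed little between genotypes. Psmb8, the chymotrypsin-like subunit, measured 368, 350 and 310 CPM in IL-4Rα+/+ and 309, 323 and 343 CPM in IL-4Rα-/-, a log2 fold change of -0.08 (SE 0.09, 95% interval -0.29 to 0.14, adjusted p = 0.793 by edgeR). Psmb9, the subunit in the caspase-like position, measured 142, 138 and 119 CPM in IL-4Rα+/+ and 120, 123 and 132 CPM in IL-4Rα-/-, a log2 fold change of -0.09 (SE 0.09, adjusted p = 0.767). Both overlapped between genotypes, with IL-4Rα+/+ replicate 1 highest. Psmb10, the trypsin-like subunit, lies on chromosome 8 away from the class I region, at 105935735 to 105938444. It measured 148, 147 and 152 CPM in IL-4Rα+/+ and 146, 170 and 153 CPM in IL-4Rα-/-, with IL-4Rα-/- replicate 2 alone standing up from the rest. Its log2 fold change was 0.07 (SE 0.08, adjusted p = 0.787).

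Set against the constitutive subunits they replace, the immunosubunits gave ratios that were lower on average in IL-4Rα-/- monocytes but overlapped. The ratio of Psmb8 to Psmb5 counts was 14.4, 14.0 and 10.3 in IL-4Rα+/+ and 11.2, 9.87 and 12.1 in IL-4Rα-/-, a difference of -0.21 on the log2 scale (exact permutation p = 0.300). The ratio of Psmb9 to Psmb6 was 1.81, 1.82 and 1.41 against 1.51, 1.35 and 1.61, a difference of -0.17 (exact permutation p = 0.300). The ratio of Psmb10 to Psmb7 was 1.61, 1.65 and 1.46 against 1.46, 1.41 and 1.48, a difference of -0.12 (exact permutation p = 0.200). In each pair IL-4Rα+/+ replicate 3 lay among the knockouts and IL-4Rα-/- replicate 2 was the lowest library. The constitutive subunits themselves had log2 fold changes of 0.14 for Psmb5, 0.08 for Psmb6 and 0.19 for Psmb7, and 0 of the 3 passed an unadjusted p of 0.05. Over the 6 ratios tested, these 3 and the 3 given above, every Benjamini-Hochberg adjusted p was 0.600.

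**Figure D3:**
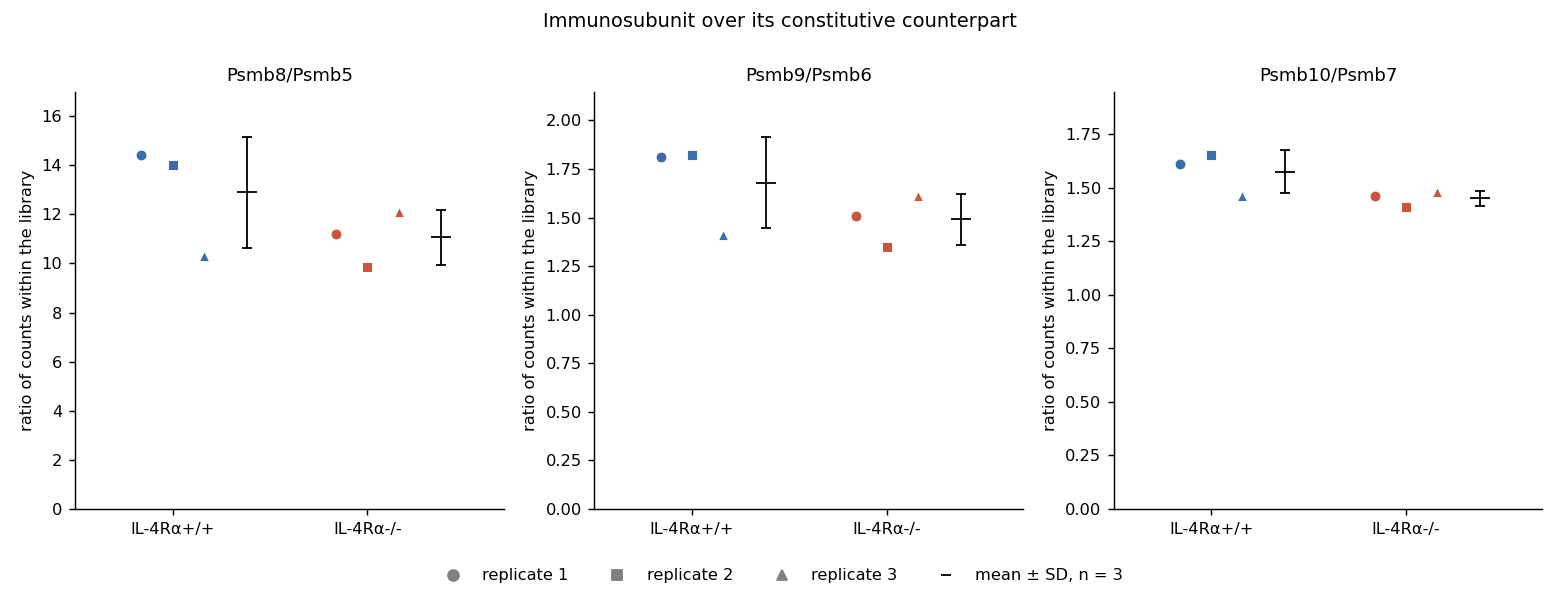
Each panel plots the ratio of an immunosubunit's counts to those of its constitutive counterpart in each library on a linear y axis from 0, with the mean and SD of each genotype (n = 3). In the Psmb8/Psmb5 panel the IL-4Rα+/+ points span 10.3 to 14.4 and the IL-4Rα-/- points 9.87 to 12.1.

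Nlrc5 was the 1 gene of the 10 whose genotypes did not overlap. It encodes the class I transactivator, which assembles on the upstream boxes of H2-K1, H2-D1, B2m, Tap1 and Psmb9, and it lies on chromosome 8 at 94434356 to 94527272. It measured 186, 216 and 161 CPM in IL-4Rα+/+ and 138, 156 and 158 CPM in IL-4Rα-/-. The lowest wild-type library and the highest knockout library were 161 and 158 CPM, so the groups were apart by a narrow margin. Genes lower in IL-4Rα-/- without overlap made up 7.87% of all genes tested (1090), those higher 7.63% (1056), and of the 10 class I genes 1 was lower and 0 were higher. The means were 188 ± 27.7 and 151 ± 11.4 CPM (SD, n = 3 each), a fold of 0.803 with a 95% interval of 0.654 to 0.986. The log2 fold change was -0.32 (SE 0.12, unadjusted p = 0.0395, adjusted p = 0.618 by edgeR), and DESeq2 gave an unadjusted p of 0.0341 and an adjusted p of 0.564. Across the alternatives its log2 fold change stayed between -0.41 and -0.19 and its adjusted p between 0.406 and 0.901. With the trend of fold change on transcript length removed it was -0.19 with an unadjusted p of 0.138, and Nlrc5 is long, with 7578 bases of transcript. Upper-quartile scaling gave an unadjusted p of 0.0536 and Xist as a covariate 0.0546. With 1 library left out, the unadjusted p was 0.00942 without IL-4Rα+/+ replicate 3 and 0.0571 to 0.123 in the other 5 fits. The target genes, by contrast, overlapped between genotypes in every case given above, but whether Nlrc5 differed from them was not tested. IL-4Rα+/+ replicate 2 had the highest Nlrc5 and not the highest level of any other of the 10 genes.

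Across the 6 mice H2-K1, H2-D1, B2m and Nlrc5 varied by more than the other 6 genes. IL-4Rα+/+ replicate 1 was the highest library for 7 of the 10 genes and IL-4Rα+/+ replicate 3 was below the gene's own mean over the 6 libraries in all 10. The summed level of the 10 genes was 13441, 11120 and 8730 CPM in IL-4Rα+/+ and 10351, 8702 and 10788 CPM in IL-4Rα-/-. The highest and nearly the lowest sum thus came from the same genotype. The highest library exceeded the lowest by 2.11 times for H2-K1, 1.57 times for Nlrc5, 1.55 times for H2-D1 and 1.51 times for B2m, but by 1.06 times for Tapbp to 1.27 times for Tap2 among the other 6.

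**Figure D4:**
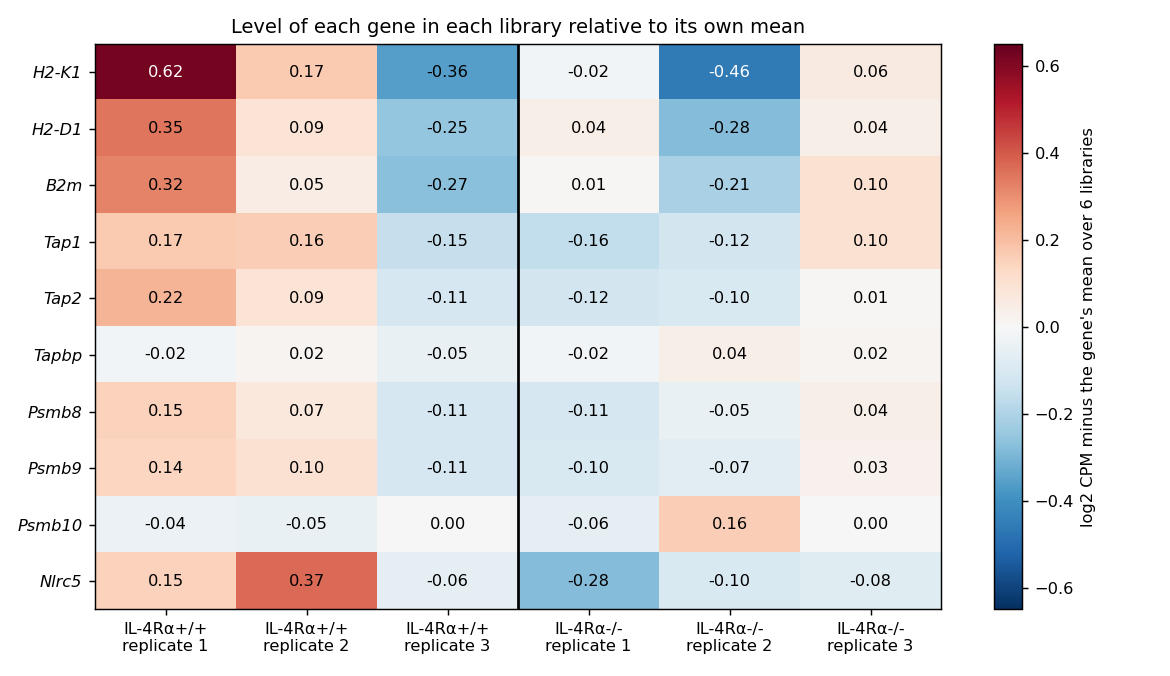
Rows are the 10 genes and columns the 6 libraries; colour and number give the log2 CPM minus the gene's mean over the libraries. H2-K1 runs from 0.62 in IL-4Rα+/+ replicate 1 to -0.46 in IL-4Rα-/- replicate 2, while Tapbp stays between -0.05 and 0.04.

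The order of the mice by H2-K1 was, from the highest, IL-4Rα+/+ replicates 1 and 2, IL-4Rα-/- replicates 3 and 1, IL-4Rα+/+ replicate 3 and IL-4Rα-/- replicate 2. Of the 15 possible pairs of libraries, H2-D1 ordered 14 as H2-K1 did, B2m and Psmb9 13, Tap1, Tap2 and Psmb8 12 each, and Nlrc5 11. Tapbp ordered 6 and Psmb10 5 that way. These comparisons were chosen after the values were seen and are a description of 6 libraries that share the same depth and scaling. The share of all genes tested that order the libraries this way was not computed. The pair counts here and below therefore cannot set the class I genes apart from other genes.

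The monocyte markers ran along the same order, in opposite directions for markers of the Ly6C-low and Ly6C-high subsets. Ace, a marker of Ly6C-low monocytes, measured 2774, 2123 and 1088 CPM in IL-4Rα+/+ and 1745, 710 and 1604 CPM in IL-4Rα-/-, and ordered 14 of 15 pairs as H2-K1 did. Nr4a1, the transcription factor that Ly6C-low monocytes need, measured 1439, 1209 and 828 CPM against 1024, 539 and 1116 CPM and ordered all 15. Ccr2, the receptor that Ly6C-high monocytes use to leave the marrow, measured 380, 1045 and 1668 CPM in IL-4Rα+/+ and 826, 2008 and 979 CPM in IL-4Rα-/-, and ordered 3 of 15. Of the whole list of 10 monocyte markers, 6 (Csf1r, Cx3cr1, Nr4a1, Ace, Treml4 and Cd300e) ordered 12 to 15 pairs as H2-K1 did and 4 (Ly6c2, Ccr2, Lyz2 and Itgam) ordered 2 to 5. The order was not particular to monocyte markers. Of the dendritic cell markers, Itgax measured 559, 379 and 220 CPM in IL-4Rα+/+ and 354, 174 and 290 CPM in IL-4Rα-/-, close to that order. Zbtb46 and Clec9a were also close to it, and Flt3 and Xcr1 were not. The neutrophil marker Mmp8 ran nearly in reverse. The part of all these markers in the class I values was not tested, and in bulk RNA fewer cells of a subset and less RNA per cell cannot be told apart.

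**Figure D5:**
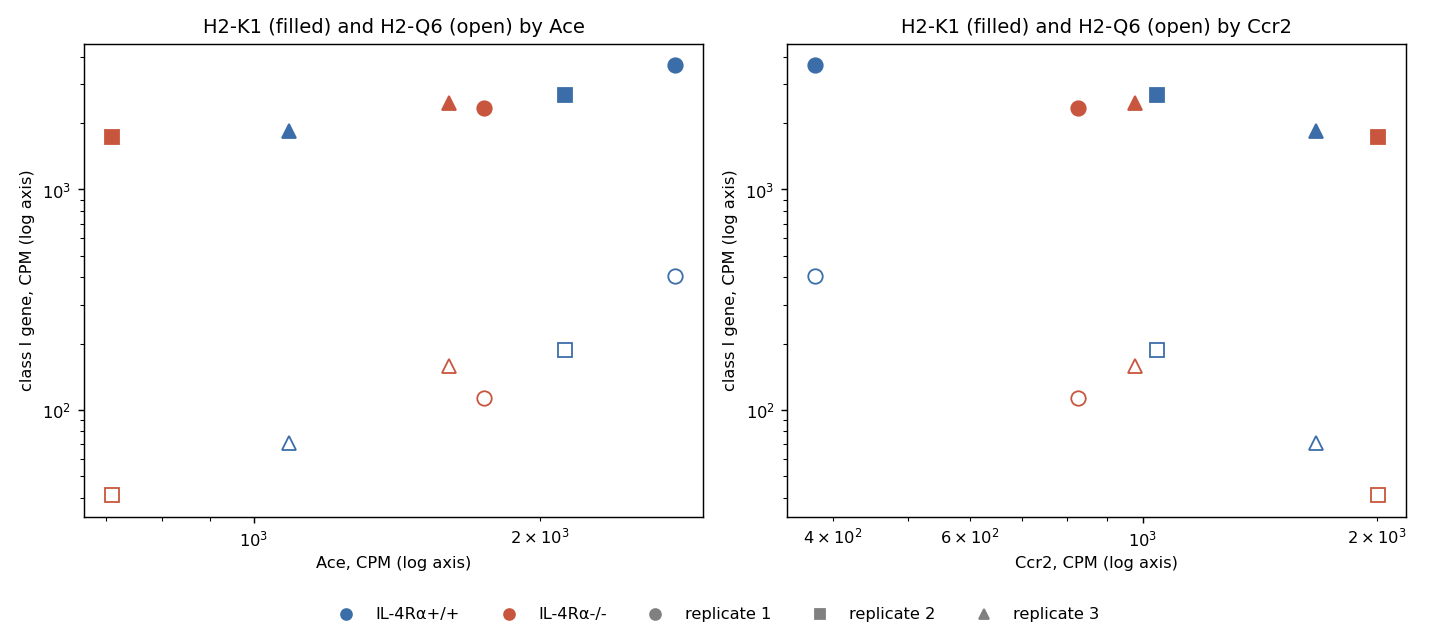
The CPM of H2-K1 (filled) and H2-Q6 (open) in each of the 6 libraries is plotted on a log axis against the CPM of Ace on the left and of Ccr2 on the right, also on log axes, with colour for genotype and symbol for replicate number. The library with the most Ace, IL-4Rα+/+ replicate 1 at 2774 CPM, has the most H2-K1, and the one with the most Ccr2, IL-4Rα-/- replicate 2 at 2008 CPM, has the least.

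Among the non-classical class I genes, H2-Q4, H2-Q6 and H2-Q7 of the Q region had the same order on a wider scale. Outside the Q region, H2-M2, H2-M3, H2-T10, H2-T22 and H2-T23 had most of that order, so it was not particular to the Q genes. The highest library exceeded the lowest by 2.13 times for H2-T10, 1.59 for H2-M3, 1.28 for H2-T22 and 1.16 for H2-T23. H2-Q10, H2-T24, Mr1, Cd1d1 and Fcgrt departed from it further. Of 17 listed non-classical and class I-like genes 13 were tested, all but H2-Q1, H2-Q2, H2-T3 and Cd1d2. Of these, 0 had an unadjusted p under 0.05 and 0 were apart between genotypes, and the median log2 fold change was -0.09. H2-Q6 measured 406, 188 and 70.6 CPM in IL-4Rα+/+ and 113, 41.2 and 158 CPM in IL-4Rα-/-, and H2-Q7, which encodes a Qa-2 protein, 314, 170 and 72.6 CPM against 105, 52.1 and 146 CPM. Both, with H2-Q4, ordered all 15 library pairs as H2-K1 did, and the highest library exceeded the lowest by 9.85 times for H2-Q6 and 6.03 times for H2-Q7. H2-M2 ordered 13 pairs that way, and its highest library exceeded its lowest by 5.91 times. H2-Q6 had the most negative log2 fold change of the list, -1.09, but with an SE of 0.70 and an unadjusted p of 0.164. H2-Q10 had the highest, 0.41, at 0.821 to 2.63 CPM, and was highest in IL-4Rα-/- replicate 2, the library with the least H2-K1. The Q genes are near copies, with 21.1% of the 75-base stretches of H2-Q6 found in other transcripts, so their single values are uncertain. Among the 10 genes the shares were 1.55% for H2-K1 and 7.1% for H2-D1, and 0 for B2m, Psmb10 and Nlrc5.

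Other genes of peptide loading and trimming gave 1 higher and 1 lower at an unadjusted p under 0.05 among 11 tested. Of all genes tested, 3.72% were higher and 4.37% lower at that p, and 7.63% were higher and 7.87% lower without overlap. Tpp2, a cytosolic peptidase that trims proteasome products, measured 142, 139 and 135 CPM in IL-4Rα+/+ and 124, 110 and 116 CPM in IL-4Rα-/-, with no overlap. Its log2 fold change was -0.25 (SE 0.07, unadjusted p = 0.0137, adjusted p = 0.618 by edgeR). Lap3, a leucine aminopeptidase, measured 61.7, 57.0 and 55.5 CPM in IL-4Rα+/+ and 96.7, 65.9 and 78.3 CPM in IL-4Rα-/-, also with no overlap, and its log2 fold change was 0.47 (SE 0.14, unadjusted p = 0.0148, adjusted p = 0.618). Tapbpl, the tapasin relative that edits peptides, had the lowest value of the list at -0.29 with overlapping groups. It measured 71.5, 60.5 and 43.3 CPM in IL-4Rα+/+ and 49.4, 40.1 and 53.9 CPM in IL-4Rα-/-, the library order of H2-K1. The median of the list was 0.05.

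Among the 10 constitutive proteasome subunits, activators and assembly genes, 0 had an unadjusted p under 0.05. Higher in IL-4Rα-/- without overlap were 3 (Psme3, Pomp and Psmg2), beside 7.63% of all genes tested. The median log2 fold change of the list was 0.11. The range was from -0.09 for Psme4 to 0.21 for Psmg2, an assembly chaperone, and Psme3 and Pomp were named after their values were seen. All 23 regulators and interferon signalling genes were tested, and 1 was lower at an unadjusted p under 0.05, with 4 lower (Irf1, Creb1, Ifnar1 and Jak1, the last 3 named after their values were seen) and 0 higher without overlap. Of all genes tested, 4.37% were lower at that p, and 7.87% were lower and 7.63% higher without overlap. The gene under 0.05 was Irf1, the interferon-induced factor that binds class I promoters, with 292, 269 and 268 CPM in IL-4Rα+/+ and 250, 245 and 238 CPM in IL-4Rα-/-. Its groups were apart, and its log2 fold change was -0.18 (SE 0.07, unadjusted p = 0.0408, adjusted p = 0.618 by edgeR). Rfx5, which binds the X box of class I and class II promoters, had the lowest value, -0.36 with an unadjusted p of 0.0752, and its partner Rfxank the highest, 0.11.

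Of 9 cross-presentation genes, 3 were lower at an unadjusted p under 0.05 and 0 were higher, with a median log2 fold change of -0.18. Of all genes tested, 4.37% were lower and 3.72% higher at that p. No test of the list was run. The same 3 genes of the list were the ones lower without overlap, beside 7.87% of all genes tested. Wdfy4, needed to present antigen taken up from other cells, measured 272, 300 and 287 CPM in IL-4Rα+/+ and 251, 243 and 234 CPM in IL-4Rα-/-, a log2 fold change of -0.24 (unadjusted p = 0.0140). Batf3, a transcription factor of cross-presenting dendritic cells, measured 36.4, 33.6 and 25.1 CPM against 25.1, 20.1 and 24.7 CPM, apart only before rounding, a log2 fold change of -0.45 (unadjusted p = 0.0299). Rab43, a small GTPase, gave -0.32 (unadjusted p = 0.0456), and all 3 had an adjusted p of 0.618 by edgeR. Clec9a, the dendritic cell receptor for dead cells, was lowest at -0.75 and Rab27a highest at 0.33, both with overlapping groups. The 8 dendritic cell markers, summed, measured 404 to 729 CPM in IL-4Rα+/+ and 336 to 543 CPM in IL-4Rα-/-, and their part in these values was not tested. Without IL-4Rα+/+ replicate 2 none of the 9 genes passed, that is 0, and without IL-4Rα+/+ replicate 3 the number was 4.

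Markers of other cells were given beside the class I values because a magnetic selection leaves some of them. The 10 monocyte markers summed to 18753 to 23610 CPM in IL-4Rα+/+ and 20390 to 24132 CPM in IL-4Rα-/-. All 8 red pulp macrophage markers had higher means in IL-4Rα-/-, at a summed 3861 to 5986 CPM against 2958 to 3404 CPM, and erythroid markers summed to 158 to 393 CPM against 59.6 to 113 CPM. Markers of eosinophils, basophils and mast cells summed to 28.9 to 47.6 CPM against 8.28 to 22.1 CPM. The sums of neutrophil (54.7 to 597 CPM), B and plasma cell (584 to 907 CPM), T and NK cell (40.0 to 107 CPM) and pancreatic acinar markers (0.135 to 240 CPM) overlapped between genotypes. No listed marker was at 0 in all libraries. Of the 8 neutrophil markers, Ly6g was at most 0.315 CPM, but Mmp8 reached 305 CPM and S100a8 91.3 CPM in IL-4Rα-/- replicate 2. In 7 of these 8 the mean was higher in IL-4Rα-/-. The part of any of these other cells in the class I values was not tested.

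Between the pair of libraries rich in Xist, IL-4Rα+/+ replicate 1 and IL-4Rα-/- replicate 3, H2-K1 differed by -0.56, B2m by -0.22 and Nlrc5 by -0.23 on the log2 scale. Between the means of the other libraries, with 2 of each genotype, the same genes differed by -0.14, 0.01 and -0.35. H2-D1 differed by -0.31 and by -0.04, and the other 6 genes by -0.20 to 0.05 and by -0.14 to 0.08. The genotypes did not overlap in Nlrc5 over all 6 libraries, so any such split had to place it lower in IL-4Rα-/-. The first set holds 1 library of each genotype, and the B2m difference of 0.01 in the second is close to none.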

How the data were processed

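Poly(A)-selected, strand-marking libraries of spleen monocytes, 1 from each of 6 mice, were sequenced. Reads were aligned by the authors with STAR 2.6.1a to GRCm38, and the authors deposited raw counts per Gencode gene, which were used as they stand. Reads that STAR's summary lines set aside (21.1% to 22.8% per library) stayed out of library sizes and tests. Symbols were matched for 55240 of 55421 identifiers. CPM are counts on genes scaled to 1e+06 per library, with TMM factors. The genotypes were compared with edgeR 4.0.16 (R 4.3.3, quasi-likelihood, filterByExpr with a minimum count of 10, Benjamini-Hochberg over 13849 genes, threshold 0.15, the study's own), unpaired, over all 6 libraries. Alternatives were DESeq2 1.42.0, its size factors or upper-quartile scaling in edgeR, other filters, a threshold of 0.05, a replicate block, Xist as a covariate, removal of the trend on transcript length, and leaving out each library. Ratios of counts within a library were tested with a two-sided exact permutation test over 20 labelings. On simulated counts with 200 genes changed by 4-fold, 94.5% were called, with 38 others, among 13600 genes. The 200 changed genes themselves ease the adjustment for many genes, and the simulated libraries had no differences in cell content. The simulation shows that the fit runs as intended and does not give the recovery in these libraries. The log2 fold changes of the 10 genes, -0.32 to 0.07, were far smaller, and recovery of changes of that size was not simulated. Replicate libraries differed beyond sampling noise.

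The 10 genes and the gene lists were chosen with earlier results of these data known. Named were the 10 genes, Psmb5, Psmb6, Psmb7, Irf1 and Il4ra, 1 further regulator that is not reported here, every gene of the pathway lists with an unadjusted p under 0.05, and the genes with the largest and smallest log2 fold change of each list. H2-Q4, H2-Q7, the other non-classical genes compared with the H2-K1 order, and the single cell type markers were named after their values were seen. Promoters came from RefSeq windows (GRCm38.p6).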

Additional observations from a re-analysis of the deposited data

How the results depend on the processing

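Of the 10 genes, 0 passed the threshold under each of the 16 alternatives run, and their log2 fold changes kept their sign in 147 of 150 cases. For H2-D1 and B2m the values with 1 library left out ran from -0.28 to 0.01 and from -0.22 to 0.07. The exceptions were H2-D1 (0.01) and B2m (0.07) without IL-4Rα+/+ replicate 1, and B2m (0.00) in the 4 libraries with few Xist reads, a choice made after seeing the data. Leaving out 1 library moved the median of the 10 genes between -0.22 and -0.03, the log2 fold change of H2-K1 between -0.53 and -0.05 and that of Nlrc5 between -0.41 and -0.20. The ratio of Tap1 to Tap2 changed sign without IL-4Rα-/- replicate 3 (-0.02), within a range of -0.02 to 0.06. Over all genes, edgeR called 0 and DESeq2 80; the cause was not tested. With 1 library left out, genes with an unadjusted p under 0.05 numbered 0 to 3 among the 10 (H2-K1, Tap2 and Nlrc5 without IL-4Rα+/+ replicate 3, and 0 in the other 5 fits), 0 to 3 among the regulators, 0 to 4 for cross-presentation and 0 to 4 among the non-classical genes, in each case highest without IL-4Rα+/+ replicate 3. Deviations of the same-numbered libraries from their genotype means correlated at 0.300, -0.315 and -0.421, with no common sign. Such correlations cannot show whether same-numbered mice were handled together. The fit with a replicate block called 0 genes, left the median at -0.10, gave Nlrc5 an unadjusted p of 0.0584 and put 0 regulators under 0.05. With 3 libraries per genotype, the interval of H2-K1, -0.93 to 0.30, includes changes of either direction. Counting error was small beside the spread between libraries. With 1 library per mouse, differences between mice, in cell content and in preparation cannot be told apart.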
